A study of Mus musculus and Homo sapiens with 10 samples.

Results

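Messenger RNA levels of 10 genes of iron uptake, storage and sensing were followed in embryonic stem cells given vitC, a vitamin that keeps iron in its reduced form. The genes were *Tfrc*, *Fth1*, *Ftl1*, *Slc40a1*, *Slc11a2*, *Aco1*, *Ireb2*, *Fech*, *Ncoa4* and *Fbxl5*. They were taken by symbol with no threshold on their values, although earlier results of these data were known. Of these genes, 10 of 10 had a row among the 25899 genes listed for mouse ESCs (mESCs). Under their upper-case symbols, with FTL for *Ftl1*, 10 of 10 were also among the 35720 genes listed for human ESCs (hESCs). RNA-seq had been made from E14 cells, an established mouse ESC line grown without feeders in serum-free 2i media with LIF, as 4 untreated controls and 4 cultures that received vitC at 100 µg/ml for 24 h. Each control shares its replicate number and its culture label (10, 11, 35B or 35C) with 1 vitC library, and the 2 are called a pair below. Primed H9 hESCs, an established human line, were represented by 1 untreated and 1 vitC library with the same dose and time. The labels name H9 alone, while the study's methods describe both H9 and H9-NK2, a derivative with doxycycline-inducible KLF2 and NANOG transgenes. For primed cells the methods give HFF-conditioned medium for H9 and KSR/FGF medium for H9-NK2. Which medium these libraries had is therefore not settled here. No genetic change is stated for the mESCs, and both groups of each species come from 1 cell line.

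Cells take up transferrin-bound iron through the transferrin receptor, keep it in ferritin shells, release it from ferritin by autophagy and export it through ferroportin. The iron regulatory proteins, encoded by *Aco1* and *Ireb2*, bind a hairpin called the iron-responsive element (IRE) when iron is scarce. Binding in a 5′ UTR blocks translation, as in ferritin mRNA, and binding in the 3′ UTR of the transferrin receptor mRNA shields it from decay, so the level of *Tfrc* mRNA is a known readout of this system while ferritin is controlled largely at translation. RNA-seq measures mRNA only, and neither iron nor protein was measured in these libraries.

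IRE hairpins are shown first. Among the members with a match, they separate those whose mRNA carries the element at its start from *Tfrc*, which carries it at the end. The search looked for a C, 5 bases, the loop CAGTGN and 5 bases that pair with the first 5, on the transcript strand of annotated UTRs. In mm10 it found 1 match in the 5′ UTR of *Fth1* (chr19:9982732-9982761, plus strand), 1 in that of *Ftl1* (chr7:45459778-45459807, minus strand) and 1 in that of *Slc40a1* (chr1:45925464-45925493, minus strand). In the 3′ UTR of *Tfrc* it found 4 matches (chr16:32631219-32631248, chr16:32631598-32631627, chr16:32631663-32631692 and chr16:32631710-32631739, plus strand), which lie within 521 bases. The loop is in capitals in these windows of 30 bases, written 5′ to 3′ as in DNA.
Fth1 5′ UTR: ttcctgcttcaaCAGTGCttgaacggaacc
Ftl1 5′ UTR: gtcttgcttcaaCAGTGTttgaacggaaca
Slc40a1 5′ UTR: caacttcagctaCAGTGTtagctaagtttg
Tfrc 3′ UTR, site 1: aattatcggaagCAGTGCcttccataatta
Tfrc 3′ UTR, site 2: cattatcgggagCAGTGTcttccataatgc
Tfrc 3′ UTR, site 3: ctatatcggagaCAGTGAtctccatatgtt
Tfrc 3′ UTR, site 4: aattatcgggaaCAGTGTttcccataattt

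The same search in hg38 found 1 match each in the 5′ UTRs of *FTH1*, *FTL* and *SLC40A1* and 4 in the 3′ UTR of *TFRC*. Of the 30 bases of a window, 30 were the same in both species for *Slc40a1* and for *Tfrc* sites 1 and 4, 29 for *Tfrc* sites 2 and 3 and for *Fth1*, and 28 for *Ftl1*. Such a match was present in the 5′ UTR of 31 of 20062 mouse genes (0.1545%) and in the 3′ UTR of 129 of 20874 (0.618%). The remaining 6 members had no match of these letters and pairs, which says nothing about other forms of the element.

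Between 3354852 and 6921305 reads per mESC library were assigned to genes, and 15367652 and 17188555 in the hESC libraries. All 10 markers of ESCs were detected in both species. In mESCs they summed to between 5246 and 6028 CPM (a gene's reads per 1000000 gene reads of the library), against 5.79 to 11.2 for 6 macrophage markers, 7.52 to 20.0 for 7 fibroblast markers and 0.17 to 1.69 for 6 erythroid markers, of which *Alas2*, *Hba-a1* and *Hbb-b1* were at 0 in every library. The share of rRNA among repeat reads was between 42.0% and 63.1%, and it was lower with vitC in pairs 1 and 2 and higher in pairs 3 and 4. Levels below are in CPM. Differences and tests are on the scale of the deposited values, which are variance-stabilised and close to log2 for abundant genes but compress the changes of genes with few reads. In such bulk samples, fewer cells of a type and less RNA per cell cannot be told apart.

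*Tfrc* was lower and *Fbxl5* was higher in vitC-treated mESCs, with every vitC library on one side of every control. With limma and no term for the pair, 1 of 10 members was past the threshold of 0.05 (Benjamini-Hochberg over the 14631 genes tested) as higher, *Fbxl5*, beside 0.321% of all genes tested. In that fit 0 of 10 were lower, beside 0.0205% of all genes, while at an unadjusted p under 0.05 it had 3 members higher and 1 lower, beside 4.48% and 3.18% of all genes. DESeq2 on recovered reads called *Tfrc* lower without the pair as well, beside 0.0966% of its genes, and edgeR called 0 members lower, beside 0.0252%. Both called *Fbxl5* higher, beside 0.574% of genes in DESeq2 and 0.293% in edgeR. With the replicate number as a block, limma called 5 members higher (*Fth1*, *Ftl1*, *Slc40a1*, *Aco1* and *Fbxl5*), beside 6.36% of all genes, and 1 lower (*Tfrc*), beside 4.44%. The edgeR fit with the block called these 6 as well, beside 8.55% of its genes higher and 6.3% lower. DESeq2 with the block called *Fbxl5* alone higher, beside 1.99%, and *Tfrc* alone lower, beside 0.864%. The median difference of the 10 members was 0.12, beside -0.002 for all genes tested.

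**Figure D1:**
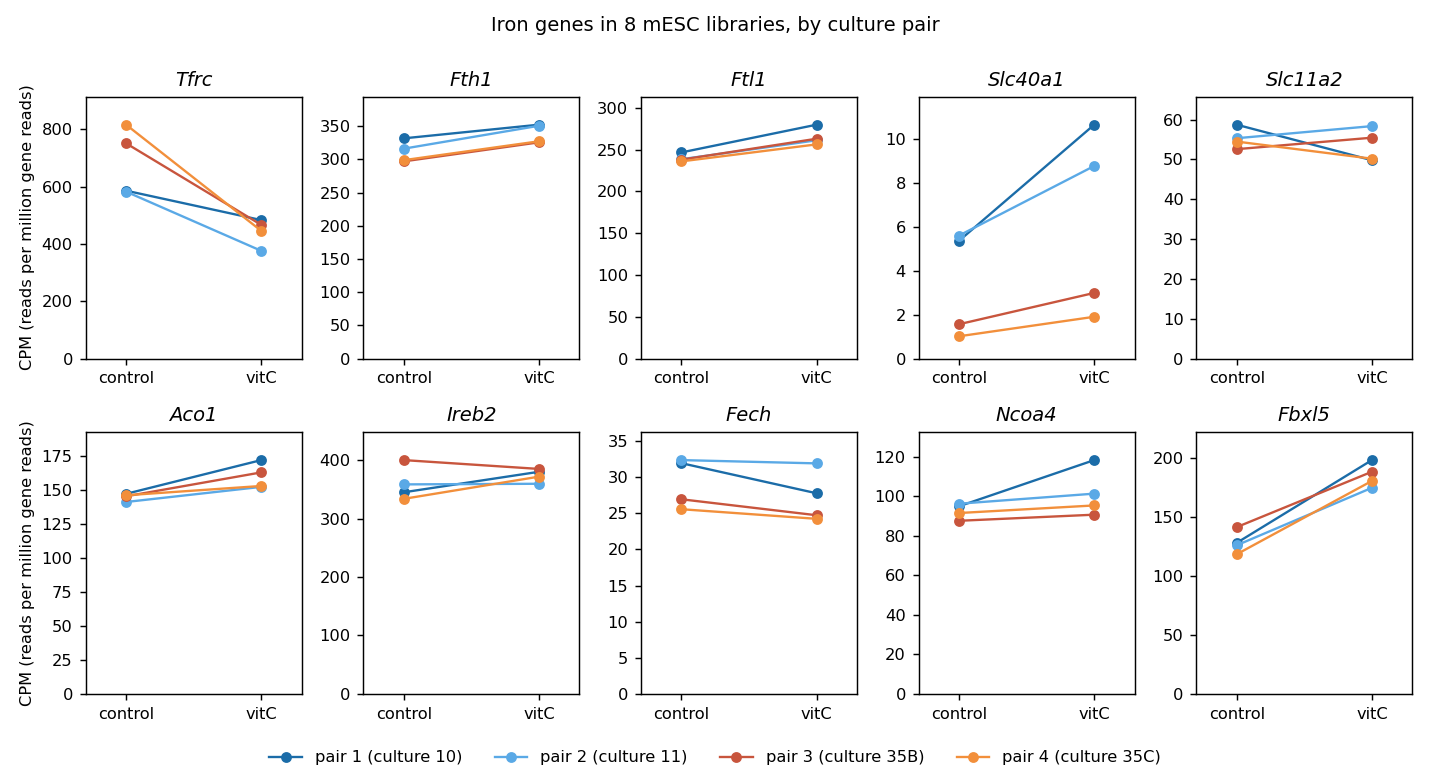
Level in CPM (y axis, from 0) of each iron gene in the control and the vitC library of each culture pair, joined by a line, for 4 pairs of mESC cultures. *Tfrc* falls along all 4 lines and *Fbxl5* rises along all 4, while *Slc40a1* is low in every library and lower in cultures 35B and 35C than in 10 and 11.

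Among the uptake genes, *Tfrc* (chromosome 16, 32608920 to 32632794, mm10) encodes the transferrin receptor. Its control level was 586 CPM in pair 1, 582 in pair 2, 751 in pair 3 and 816 in pair 4. Its vitC level was 483, 376, 466 and 446 in the same order. The groups did not overlap, as for the 1.98% of all genes tested whose vitC libraries were all below the controls, and the controls of pairs 3 and 4 stood above those of pairs 1 and 2, whereas the vitC libraries of pairs 1, 3 and 4 lay close to each other. The mean level fell by 35.2% with vitC, on 15654 control and 8460 vitC reads. On the deposited scale *Tfrc* went from 11.81 ± 0.23 (SD, n = 4) to 11.23 ± 0.14 (SD, n = 4), a difference of -0.58 (standard error, SE, 0.12, limma adjusted p = 0.100). With the replicate block the SE was 0.06 and the limma adjusted p was 1.46e-06, and it stayed past the threshold without any 1 of the 4 pairs (limma adjusted p from 7.35e-07 to 4.70e-05). Of 14631 genes tested, 2 had a lower difference than *Tfrc*.

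The fall of *Tfrc* was unequal among the pairs. It was -0.26 in pair 1, -0.58 in pair 2, -0.64 in pair 3 and -0.83 in pair 4. In cultures 10 and 11 the mean difference was -0.42, and in 35B and 35C it was -0.74. The difference between these, -0.32 (SE 0.12), had an unadjusted p of 0.0170 in a limma fit with an interaction term, and an adjusted p of 0.9997. At an adjusted p under 0.05 that interaction was called for 0 of 14631 genes by limma and 0 of 12337 by edgeR, and 4.11% of the 14631 genes, *Tfrc* alone among the members, had an unadjusted p under 0.05 with limma.

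*Slc11a2* (chromosome 15, 100387898 to 100425072), which encodes the divalent metal transporter that carries iron out of endosomes, was between 52.6 and 58.7 CPM in control and between 49.8 and 58.4 in vitC libraries. The groups overlapped, and the level was higher with vitC in 2 of 4 pairs. Its difference was -0.03 (SE 0.06, limma adjusted p = 0.961, and 0.786 with the replicate block), with a 95% interval from -0.17 to 0.11.

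Ferritin is built from heavy chains, which oxidise iron, and light chains, which help to mineralise it. *Fth1* (chromosome 19, 9980598 to 9985098), the heavy chain gene, had control levels of 332, 316, 297 and 299 CPM in pairs 1 to 4 and vitC levels of 352, 351, 326 and 327. Every pair was higher with vitC, as for 15.4% of all genes tested, but the vitC libraries of pairs 3 and 4 lay below the control of pair 1. *Ftl1* (chromosome 7, 45457944 to 45459884), the light chain gene, had control levels of 247, 238, 238 and 236 and vitC levels of 280, 261, 263 and 256. Here all 4 vitC libraries were above all 4 controls, which held for 3.31% of all genes tested. The mean level was higher by 9.02% for *Fth1* and by 10.6% for *Ftl1*. The difference was 0.13 for *Fth1* (SE 0.06, limma adjusted p = 0.713) and 0.14 for *Ftl1* (SE 0.05, limma adjusted p = 0.566). With the replicate block they were past the threshold (limma adjusted p = 0.0238 and 0.0149), whereas DESeq2 with the block gave adjusted p of 0.163 and 0.130. *Fth1* was past it in 1 of the 4 block fits that left out a pair, the one without pair 1, and *Ftl1* in 2, those without pair 2 or pair 3. The genome annotation names 2 pseudogenes of *Ftl1*, and how reads shared with such copies were counted per gene is not given in the sources used here.

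*Ncoa4* (chromosome 14, 32159865 to 32179855) encodes the receptor that delivers ferritin to autophagosomes. It was between 87.5 and 96.2 CPM in control and between 90.6 and 118 in vitC libraries. The highest value was the vitC library of pair 1. The groups overlapped although each pair was higher with vitC, as for 15.4% of all genes tested. Its difference of 0.11 (SE 0.08, limma adjusted p = 0.806) was not past the threshold with the replicate block either (limma adjusted p = 0.136).

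*Slc40a1* (chromosome 1, 45908068 to 45926523) encodes ferroportin, the iron exporter. It was scarce, with 33, 29, 7 and 7 reads in the controls of pairs 1 to 4 and 57, 51, 10 and 9 reads in the vitC libraries. In CPM these are 5.35, 5.59, 1.56 and 1.01 in control and 10.6, 8.75, 2.98 and 1.90 with vitC. Each pair was higher with vitC, as for 15.4% of all genes tested. The groups overlapped because cultures 35B and 35C were low in both conditions. The difference of 0.23 on the deposited scale (SE 0.18, limma adjusted p = 0.837) was past the threshold with the replicate block (limma adjusted p = 0.0223) and not with DESeq2 and the block (adjusted p = 0.333). It was past it without pair 3 or pair 4 and lost without pair 1 or pair 2 (limma adjusted p up to 0.148). With 1 library left out and no block, the difference ran from 0.11 (without vitC 1) to 0.35 (without vitC 4). On recovered reads edgeR gave a log2 fold change of 0.89 without the block, a larger value than on the deposited scale.

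**Figure D2:**
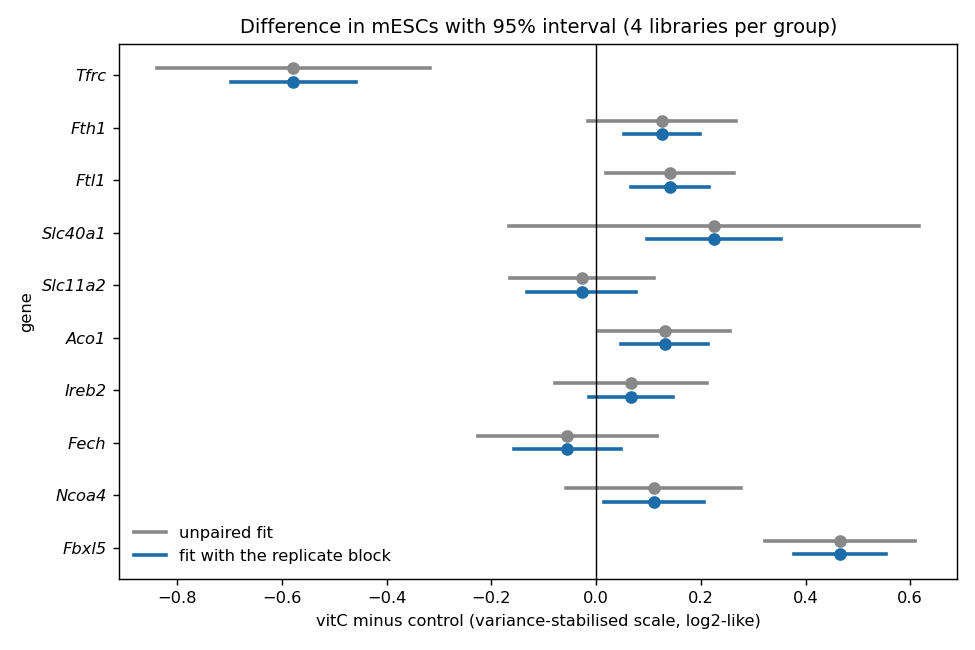
Difference between vitC and control mESCs (x axis, variance-stabilised scale, log2-like) for each iron gene (y axis), as a point with its 95% interval from limma, without (grey) and with (blue) the replicate block. *Tfrc* lies at -0.58 and *Fbxl5* at 0.47, while the other differences lie between -0.05 and 0.23. Both intervals exclude 0 for *Tfrc*, *Fbxl5*, *Ftl1* and *Aco1*. The intervals are not adjusted for the number of genes tested.

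Of the sensors, *Fbxl5* (chromosome 5, 43744615 to 43821638) encodes an F-box protein that binds iron and directs the degradation of the *Ireb2* product when iron is present. Its control level was 128, 126, 142 and 119 CPM in pairs 1 to 4, and its vitC level was 199, 175, 189 and 181. The lowest vitC library stood above the highest control, as for 3.31% of all genes tested. The mean level was 44.4% higher, on 2903 control and 3576 vitC reads. On the deposited scale it rose from 9.63 ± 0.09 (SD, n = 4) to 10.09 ± 0.07 (SD, n = 4), a difference of 0.47 (SE 0.06, limma adjusted p = 0.0155, and 3.69e-07 with the replicate block). The rise was 0.55, 0.42, 0.37 and 0.52 in pairs 1 to 4, and 66 of 14631 genes had a higher difference. In the fits that left out 1 library each, the difference lay between 0.43 and 0.50 and the limma adjusted p between 0.0327 and 0.0685. It was past the threshold in 3 of these 8 and missed it without control 1, 2 or 4 or without vitC 1 or 3.

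The target of that degradation, *Ireb2* (chromosome 9, 54863789 to 54912530), which encodes iron regulatory protein 2, was between 334 and 400 CPM in control and between 360 and 385 in vitC libraries. The groups overlapped and 3 of 4 pairs were higher with vitC. Its difference was 0.07 (SE 0.07, limma adjusted p = 0.883, and 0.296 with the replicate block). *Aco1* (chromosome 4, 40143081 to 40198338), whose product is either cytosolic aconitase or iron regulatory protein 1, had control levels of 147, 141, 145 and 146 and vitC levels of 172, 152, 163 and 153. All 4 vitC libraries were above all 4 controls, as for 3.31% of all genes tested. Its difference of 0.13 (SE 0.06, limma adjusted p = 0.633) was past the threshold with the replicate block (limma adjusted p = 0.0410), but in none of the 4 block fits that left out a pair (limma adjusted p from 0.0673 to 0.164), nor by DESeq2 with the block (adjusted p = 0.357).

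*Fech* (chromosome 18, 64452914 to 64490251), which encodes ferrochelatase, the enzyme that inserts iron into haem, was between 25.6 and 32.4 CPM in control and between 24.2 and 31.9 in vitC libraries. It was lower with vitC in 4 of 4 pairs, as were 14.4% of all genes tested, and the groups overlapped. Its difference was -0.05 (SE 0.08, limma adjusted p = 0.934, and 0.530 with the replicate block).

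**Figure D3:**
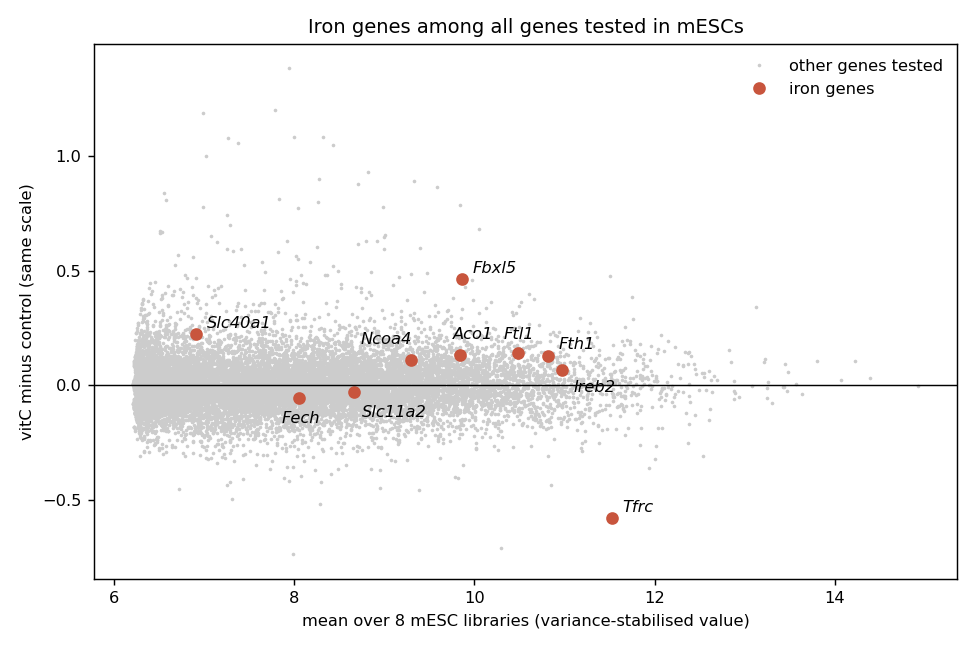
Difference between vitC and control mESCs (y axis) against the mean deposited value over 8 libraries (x axis) for all 14631 genes tested (grey), with the 10 iron genes in red. *Tfrc* lies below all but 2 genes, and 66 genes lie above *Fbxl5*.

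To compare *Tfrc* with ferritin mRNA inside each library, where a factor common to the library drops out, the deposited value of *Fth1* was subtracted from that of *Tfrc*. This log2-like ratio was 0.77, 0.83, 1.26 and 1.37 in the controls of pairs 1 to 4, and 0.43, 0.09, 0.48 and 0.42 in the vitC libraries. All vitC values were below all control values. The ratio went from 1.06 ± 0.30 (SD, n = 4) to 0.36 ± 0.18 (SD, n = 4), a difference of -0.70 (p = 0.0286 in an exact permutation test, two-sided over 70 labellings, which can give no smaller p). After Benjamini-Hochberg adjustment over the 2 ratios tested, the exact permutation p was 0.0571, which is not past the threshold. Flipping signs within the pairs gave an exact p of 0.125, and 4 pairs can give none smaller. Within cultures 10 and 11 the difference was -0.54 and within 35B and 35C it was -0.87, each with an exact permutation p of 0.333, the smallest that 2 against 2 libraries allow. For *Fth1* against *Ftl1*, the control ratio was 0.34 ± 0.05 (SD, n = 4) and the vitC ratio 0.33 ± 0.05 (SD, n = 4), a difference of -0.01 (exact permutation test, p = 0.743).

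**Figure D4:**
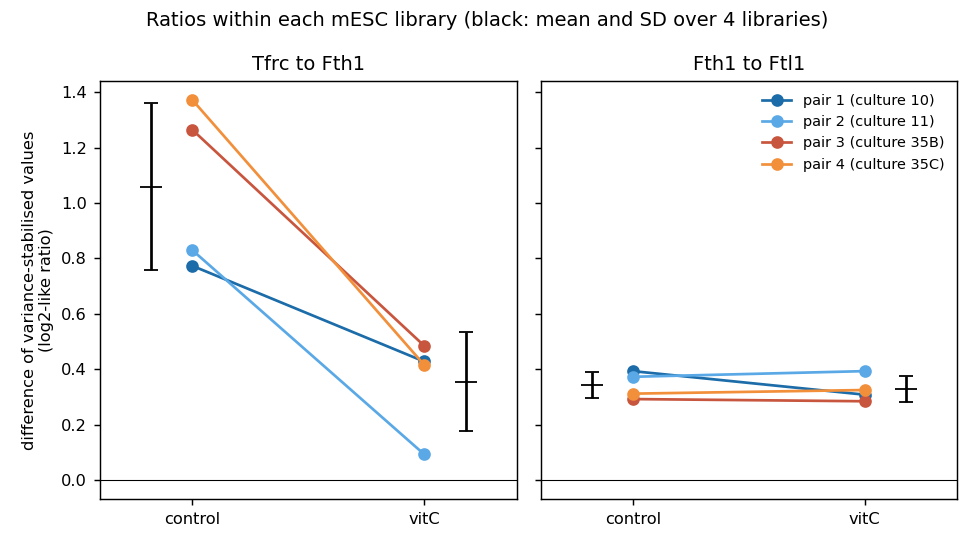
Difference of deposited values between *Tfrc* and *Fth1* (left) and between *Fth1* and *Ftl1* (right) within each mESC library (y axis, log2-like), joined by pair, with the mean and SD over 4 libraries in black. The *Tfrc* to *Fth1* values run from 0.77 to 1.37 in control and from 0.09 to 0.48 with vitC, while the ferritin chains keep between 0.28 and 0.39.

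The members also differed between the sets of cultures. With treatment held in the limma fit, 5 of 10 members differed between 35B and 35C on one side and 10 and 11 on the other, close to the 40.5% of all genes tested that did. That fit had no term for the culture, so the control and the vitC library of a culture counted as independent samples. Its SEs and p-values therefore measure the spread between libraries and not that between cultures, for which they are likely too small. *Slc40a1* was lower in 35B and 35C by the most, with a difference of -0.52 (SE 0.06, limma adjusted p = 2.34e-06) and 33 against 170 reads summed over 4 libraries each, for which edgeR gave a log2 fold change of -2.09. *Tfrc* was higher there by 0.23 (limma adjusted p = 0.00964), and *Fech* was lower by a difference of -0.18 (limma adjusted p = 0.00965). *Fth1* and *Ncoa4* were lower by differences of -0.12 and -0.14 (limma adjusted p = 0.0275 and 0.0288). Leaving out 1 library ended the call of *Tfrc* in 1 of 8 fits (without control 1, limma adjusted p = 0.0533), that of *Fth1* in 4 (without control 1 or vitC 2, 3 or 4, limma adjusted p up to 0.0914) and that of *Ncoa4* in 3 (without vitC 1, 3 or 4, limma adjusted p up to 0.127). What distinguishes the cultures beyond their labels is not given, so any batch among them and the culture itself cannot be told apart.

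Levels of different genes can be compared only per length of transcript, as RPKM (CPM divided by the transcript's length in kilobases). In control mESCs the order was *Ftl1* at 248 ± 4.87 RPKM (SD, n = 4), *Fth1* at 208 ± 10.9, *Tfrc* at 140 ± 24.2, *Ireb2* at 62.3 ± 5.03, *Fbxl5* at 45.0 ± 3.35, *Aco1* at 37.9 ± 0.69, *Ncoa4* at 22.8 ± 0.95, *Slc11a2* at 18.3 ± 0.85, *Fech* at 4.45 ± 0.53 and *Slc40a1* at 1.00 ± 0.72. No neighbours in that order overlapped between libraries. With vitC, *Tfrc* was at 90.5 ± 9.65 (SD, n = 4) and kept its place, and *Fbxl5* at 65.0 ± 3.57 overlapped *Ireb2* at 64.9 ± 1.93. *Fbxl5* mRNA was below *Ireb2* in every control library. The *Tfrc* level per length remained below that of either ferritin chain in both conditions. These values rest on the length of 1 principal transcript per gene.

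The genes whose centred values were most like those of *Tfrc* over the 8 mESC libraries were *Slc16a3*, *Podxl* and *Morf4l2*, with root mean square differences of 0.14, 0.14 and 0.15. Their vitC differences were -0.45, -0.41 and -0.43. *Slc16a3* had mean deposited values of 6.94 in control and 6.49 with vitC, near the lowest value of 6.13, where changes are compressed. The genes most like *Fth1* were *D6Wsu163e*, *Mbtps1* and *Lig1*, with root mean square differences of 0.02, 0.03 and 0.03 and vitC differences of 0.11, 0.11 and 0.09. Since these genes were picked for following *Tfrc* or *Fth1* in the same libraries, their differences are a description and were not tested.

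Other genes of iron handling lay between -0.25 and 0.27 on the deposited scale, which compresses changes of genes with few reads. On recovered reads some of these had larger fold changes than *Tfrc* or *Fbxl5*, such as *Cdc14a* with an edgeR log2 fold change of 0.74, not past the threshold without the block (edgeR adjusted p = 0.603). Of 65 further genes with a row, in lists of uptake, export and systemic control, haem synthesis, mitochondrial iron and iron-sulphur clusters, cytosolic iron-sulphur assembly and other mRNAs known to carry an IRE, 53 passed the filter on low values. Without the block limma called 0 of them, while 2 higher and 1 lower had an unadjusted p under 0.05 (beside 4.48% and 3.18% of all genes), and edgeR and DESeq2 called 0 too. With the replicate block limma called 5 higher and 2 lower, or 9.43% and 3.77% of the 53, beside 6.36% and 4.44% of all genes. DESeq2 with the block called 0, and the median of the 53 differences was 0.004, beside -0.002 for all genes. By list, the block fit called 2 of 14 uptake, export and control genes higher, 0 of 8 haem synthesis genes, *Fech* included, 2 of 18 mitochondrial genes higher, 1 of 10 cytosolic assembly genes lower, and 1 of 4 other IRE mRNAs higher and 1 lower.

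The 5 higher genes were *Cdc14a*, *Heph*, *Slc25a37*, *Slc25a28* and *Slc39a14*. *Slc25a37* and *Slc25a28*, the mitoferrins that carry iron into mitochondria, had differences of 0.22 and 0.19 (block limma adjusted p = 0.0348 and 0.0241). For each, all 4 vitC libraries were above all 4 controls, as for 3.31% of all genes tested. *Heph*, a copper ferroxidase that works with ferroportin, had 19 control and 52 vitC reads and a difference of 0.23 (block limma adjusted p = 0.0478). *Slc39a14*, an importer of zinc and of iron not bound to transferrin, differed by 0.18 (block limma adjusted p = 0.0432). *Cdc14a*, a phosphatase from the list of other mRNAs known to carry an IRE, differed by 0.27 (block limma adjusted p = 0.0145). The IRE search had a match in the 3′ UTR of human *CDC14A* and none in mouse *Cdc14a*, which says nothing about other forms of the element. The 2 lower genes were *Epas1* and *Glrx3*. *Epas1*, an oxygen-regulated transcription factor subunit whose mRNA is known to carry an IRE, had a difference of -0.25 (block limma adjusted p = 0.00467). Its vitC libraries were all below the controls, as for 1.98% of all genes tested. The IRE search had no match in mouse *Epas1* or human *EPAS1*, which again says nothing about other forms of the element. *Glrx3*, a glutaredoxin of iron-sulphur cluster assembly, had a difference of -0.16 (block limma adjusted p = 0.0345). With 1 pair left out, *Epas1* and *Cdc14a* were past the threshold in 3 of 4 block fits and *Slc39a14* in 2. *Glrx3*, *Heph*, *Slc25a37* and *Slc25a28* were each past it in only 1 of 4. Single libraries moved several of the values: the difference of *Cdc14a* was 0.14 without vitC 1, that of *Heph* 0.11 without vitC 1, that of *Slc25a37* 0.14 without vitC 3, and that of *Slc39a14* 0.11 without control 4 and 0.28 without control 3.

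In primed hESCs, none of the 10 genes had a share of gene reads that differed by 1.5-fold or more between the vitC and the control library. Among the 15931 genes with enough reads, 7.39% were at least that much higher and 5.82% at least that much lower. Replicates are lacking, so nothing was tested, and the 95% intervals (exact Clopper-Pearson) cover counting error only. *TFRC* had 2350 control and 2696 vitC reads, or 153 and 157 CPM, and the log2 ratio was 0.04 (interval -0.04 to 0.12). The interval for *FBXL5*, with 1238 and 1401 reads, was -0.09 to 0.13 around 0.02. At this depth a change in these libraries as large as that of mESCs lies outside both intervals, where edgeR gave log2 fold changes of -0.62 for *Tfrc* and 0.54 for *Fbxl5*, but no difference between the species was tested.

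*FTH1* had 23669 and 25135 reads, a log2 ratio of -0.07 (interval -0.10 to -0.05), and *FTL* had 11176 and 12528, a ratio of 0.00 (interval -0.03 to 0.04). The annotation names 25 pseudogenes of *FTH1*, 16 of *FTL* and 4 of *NCOA4*, which may share reads with them. *ACO1* was at -0.16 (interval -0.29 to -0.03) and *IREB2* at -0.08, with an interval that ended just under 0, so that 3 intervals lay below 0 and 0 above. Of all genes, 11.7% had an interval below 0 and 15.6% one above it. *NCOA4* was at 0.06 (interval -0.02 to 0.14), *SLC11A2* at -0.04 (interval -0.16 to 0.08) and *FECH* at -0.06 (interval -0.26 to 0.14). *SLC40A1* had 11 and 10 reads, and its interval ran from -1.69 to 1.08. The members' median log2 ratio was -0.05, beside 0.02 for all genes.

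**Figure D5:**
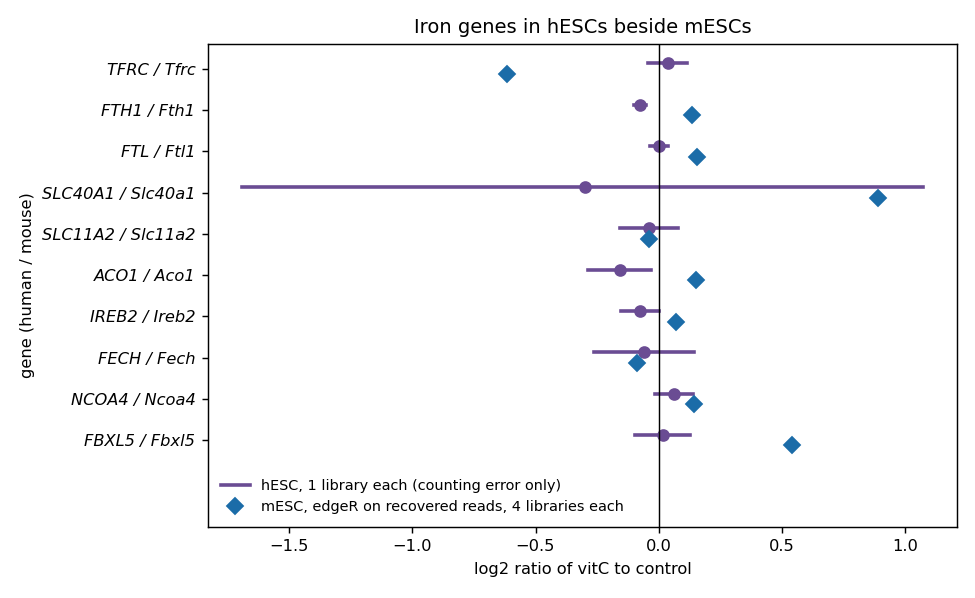
Log2 ratio of vitC to control (x axis) for each iron gene (y axis) in hESCs, as a point with its 95% counting interval from 1 library per condition (purple), beside the edgeR log2 fold change in mESCs from 4 libraries per group (blue diamonds). *TFRC* and *FBXL5* lie at 0.04 and 0.02, and the mouse values at -0.62 and 0.54.

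The order of levels per length in control hESCs was *FTH1* at 1280, *FTL* at 835, *NCOA4* at 44.9, *TFRC* at 28.3, *IREB2* at 28.2, *FBXL5* at 23.1, *SLC11A2* at 19.2, *FECH* at 9.95, *ACO1* at 8.72 and *SLC40A1* at 0.215 RPKM. Here both ferritin chains stood above *TFRC*. The labels give polyA RNA for the hESC libraries and total RNA for the mESC libraries, so these levels are set beside those of mESCs and are not compared with them. In the control and vitC hESC libraries, 7 fibroblast markers summed to 1751 and 1631 CPM, beside 1811 and 1852 for 10 ESC markers. Most of the fibroblast sum came from *COL1A1* (1182 and 1098), *COL1A2* (419 and 381) and *THY1* (126 and 128). The others were low: *PDGFRA* at 15.0 and 14.5, *COL3A1* at 8.7 and 8.3, *LUM* at 0.456 and 0.989, and *DCN* at 0 in both. The part of fibroblasts in the levels above was not tested.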

How the data were processed

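Libraries were directional. The methods name rRNA depletion, while the labels name depletion or mRNA isolation. For mapping to mm10 or hg38 and for reads per gene the methods name SQuIRE, while the labels name Trim Galore, HISAT2 and DESeq2. The authors deposited variance-stabilised values from DESeq2 on a log2-like scale, in which a gene's reads were first divided by a library size factor. The authors also deposited expected counts per repeat subfamily, in which reads are shared among copies. These gave the rRNA share only, and 4 further per-library columns of the mESC repeat table were not used. Inverting the transformation, with the smallest step of a library taken as 1 read, gave whole reads (tolerance 0.001) for 100% of values above the lowest.

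The main test was limma 3.58.1 (lmFit, eBayes with trend, R 4.3.3) on the deposited values of 14631 genes, those that exceeded the table's lowest value in 4 or more of 8 mESC libraries, with treatment only, Benjamini-Hochberg adjustment and a threshold of 0.05. Recovered reads were tested with edgeR 4.0.16 (quasi-likelihood, TMM) and DESeq2 1.42.0. Other alternatives were the replicate block, other filters, quantile normalisation, no trend, each set of cultures alone and each library left out, and, added after seeing the data, DESeq2 with the block and the block without each pair. The numbers pair the libraries: same-numbered libraries share a culture label, and their deviations from group means correlated at 0.626 to 0.765 over genes, while differently numbered libraries of the same set (10 and 11, or 35B and 35C) correlated at 0.574 to 0.665 and those of different sets at -0.709 to -0.546. The labels do not say whether 35B and 35C were separate cultures, so p-values measure the spread between these samples.

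Ratios were tested with scipy 1.17.1 over all labellings, and recomputed on recovered reads with a pseudocount of 0.5. In hESCs, genes with at least 10 reads over both libraries were compared. IREs were searched in UTRs of GENCODE protein-coding transcripts (GRCm38 and GRCh38), which also gave positions and lengths. Scripts were tested on simulated data. The members and lists were chosen with earlier results of these data known. Named are all members, list genes past the unpaired threshold and up to 5 on each side with the largest differences past it with the block, and the 3 genes most like *Tfrc* and *Fth1*. Intervals for mESCs come from the spread between libraries in limma, whereas those for hESCs cover counting error only, and reads carry no molecular identifiers.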

Additional observations from a re-analysis of the deposited data

How the results depend on the processing

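*Tfrc* was below 0 in all 23 alternative fits (from -0.74 to -0.42) and *Fbxl5* above 0 in all 23 (from 0.43 to 0.55), although *Tfrc* missed the threshold in 15 of these fits and *Fbxl5* in 6. The count of members higher with vitC was 1, and it was 5 with the replicate block, in limma and in edgeR, 0 in cultures 35B and 35C alone, from 0 to 1 with 1 library left out, and from 2 to 3 with the block and 1 pair left out. The count lower was 0, and it was 1 with the block in limma, edgeR and DESeq2, with the block and any 1 pair left out, and in DESeq2 without the block. For the other iron genes, 0 were called higher and 0 lower, against 5 and 2 with the block in limma and in edgeR, and with 1 pair left out the block fits called from 1 to 3 higher and from 0 to 2 lower. Members called between culture sets numbered 5, from 3 (without control 1, vitC 3 or vitC 4) to 5 with 1 library left out. The *Tfrc* to *Fth1* difference of -0.70 was past the threshold only before adjustment over the 2 ratios. It stayed below 0 in the exact paired sign-flip test (-0.70) and in either set of cultures alone (-0.54 and -0.87). With 1 library left out it also stayed below 0 (from -0.80 to -0.60, exact permutation p = 0.0571 each time). These tests have too few labellings to give an exact p under 0.05, so they cannot decide whether the call holds. The *Fth1* to *Ftl1* difference reversed to 0.0026 in cultures 35B and 35C alone, and with 1 library left out it ranged from -0.0367 to 0.0020 (without control 1). *Slc11a2* reversed to 0.0177 with the block without pair 1. With 1 library left out, differences between culture sets ranged from -0.0442 to 0.0098 for *Aco1* (above 0 without vitC 1), from -0.0233 to 0.0727 for *Ireb2* (below 0 without control 3) and from -0.0538 to 0.0307 for *Fbxl5* (above 0 without control 4, vitC 1 or vitC 4, at 0.0307, 0.0248 and 0.0080). These reversals lay near 0 and none was past the threshold in either direction. For the other settings that moved a count, the cause was not tested beyond their construction, since fits of part of the libraries have fewer samples. *Slc40a1* and *Heph* rest on few reads, and changes of such genes were compressed on the deposited scale. The 24 groups looked at for a library far from the others gave none.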
